A study of Mus musculus with 12 samples.

Results

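The enzymes that hydroxylate and cross-link collagen were followed in hearts of mouse embryos at embryonic day 9.5 as a set of 10 genes taken by symbol, of 15663 genes listed in the 4 deposited tables. They are the prolyl 4-hydroxylase subunits P4ha1, P4ha2 and P4hb, the lysyl hydroxylases Plod1, Plod2 and Plod3, the lysyl oxidases Lox, Loxl1 and Loxl2, and the collagen chaperone Serpinh1. All 10 were listed for all 12 libraries, and all 10 entered each test. RNA sequencing was done on total heart RNA in 4 genotype groups of 3 libraries, on the strain that the labels give as C57/BL 6. Every group carried the Cre labelled NkxCre and at least 1 floxed Asb2 allele. The control group was NkxCre.Asb2fl/+. The Asb2 cKO group was NkxCre.Asb2fl/fl, the Flna-labelled group NkxCre.Asb2fl/+.Flnafl/fl, and the double mutants were NkxCre.Asb2fl/fl.Flnafl/fl. A group without Cre or without a floxed Asb2 allele was not analysed here, the cells in which this Cre acts are not given in the sources used here, and the labels do not say whether a library is 1 heart or a pool. P-values therefore measure the spread between these libraries, which may be technical in part.

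Collagen chains are modified inside the endoplasmic reticulum before they fold. Prolyl 4-hydroxylase, built of an alpha subunit that carries the catalytic site (P4ha1 or P4ha2) and of protein disulfide isomerase as its beta subunit (P4hb), makes the 4-hydroxyproline that keeps the collagen triple helix stable. Lysyl hydroxylases (Plod1, Plod2, Plod3) hydroxylate lysines that later carry sugars or cross-links, and Serpinh1, also called HSP47, binds the folded procollagen on its way out. Outside the cell the copper-dependent lysyl oxidases (Lox, Loxl1, Loxl2) oxidise lysines of collagen and elastin so that the fibres can cross-link. The hydroxylases need oxygen, iron, 2-oxoglutarate and ascorbate, and P4ha1, P4ha2, Plod2, Lox and Loxl2 are known targets of the hypoxia-inducible factors. The embryonic heart at this stage is a muscle tube lined by endocardium, with a jelly-like matrix between them.

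Against the control, P4ha1, P4ha2, Plod2 and Loxl2 rose in the Asb2 cKO hearts, by 1.42 to 2.57 on the log2(CPM + 0.5) scale, and in the double mutant hearts, by 1.48 to 2.75. With limma, 5 members rose and 0 fell in the Asb2 cKO, where 10.7% of the 14034 genes tested were called higher and 10.9% lower at an adjusted p under 0.05. In the double mutant 7 members rose and 1 fell, against 15.6% and 16.7% of 14015 genes. In the Flna-labelled group no member was called, against 0.072% of 13891 genes called in either direction. The median log2 difference of the members was 0.86 in the Asb2 cKO, 0.10 in the Flna-labelled group and 0.94 in the double mutant, where the median over all genes tested was -0.01, 0.00 and 0.01. These 3 comparisons share the same control libraries. A log2 difference of at least 1 was reached by 5 members in the Asb2 cKO and 5 in the double mutant, against 5.15% and 5.43% of all genes.

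The targeted genes gave a mixed check of the labels. Asb2 fell in the Asb2 cKO (limma log2 difference -0.99, adjusted p = 0.0248) and in the double mutant (-0.78, adjusted p = 0.00724). It was also lower, without passing, in the Flna-labelled hearts (125, 113 and 197 CPM against 289, 183 and 218 CPM in the controls, log2 difference -0.68, adjusted p = 0.334), and it did not separate the double mutant (122, 121 and 153 CPM) from the Flna-labelled group (-0.10, adjusted p = 0.737). Flna measured 958, 1011 and 990 CPM in the Flna-labelled hearts and 490, 554 and 721 CPM in the controls, so it was not lower under that label (log2 difference 0.76, adjusted p = 0.147 by limma), and it rose in the Asb2 cKO (0.58, adjusted p = 0.0464) and in the double mutant (0.86, adjusted p = 0.00255). Which exons the alleles remove is not given in the sources used here, and gene totals do not show whether reads cover them. Xist, a transcript of female cells, was above 100 CPM in 4 libraries (controls 2 and 3, Asb2 cKO 1 and 3), was 9.34 CPM in double mutant 3 and was under 1 CPM in 7 others. Its level thus differed between the groups, and no library labelled Flnafl/fl was above 9.34 CPM. Differences that go with the Flna label can therefore not be fully told apart from those that go with Xist. Each library had 25954539 to 42473118 reads in the genes listed, which makes 0.0239 to 0.038 CPM of a single read.

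Per kilobase of the deposited gene length, the control hearts held far more RNA of the folding factors than of the cross-linking enzymes. Serpinh1 led with a mean of 562 ± 19.1 CPM per kilobase (SD, n = 3), followed by P4hb with 242 ± 5.7, and Lox came last with 0.415 ± 0.269. Between them stood P4ha1 (29 CPM per kilobase), Plod2 (21.9), Plod3 (17.3), Loxl2 (13), Plod1 (10.6), P4ha2 (9.63) and Loxl1 (8.82). In this order the libraries of Plod2 and Plod3, of Plod1 and P4ha2, and of P4ha2 and Loxl1 overlapped, so these neighbours did not differ beyond their spread. In the double mutant the order among the lower genes was another one. P4ha2 there stood at 65.5 ± 2.36 CPM per kilobase, below Plod2 (75.4) and above Loxl2 (36.6), Plod3 (23.2) and Plod1 (17.8), and no neighbours in the order overlapped. These orders hold for the deposited lengths, which differ from the merged GENCODE exons in several members. The 2 lengths are 3254 and 5405 bases for Loxl2, 6797 and 4778 for Lox and 4588 and 6765 for Plod1.

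**Figure D1:**
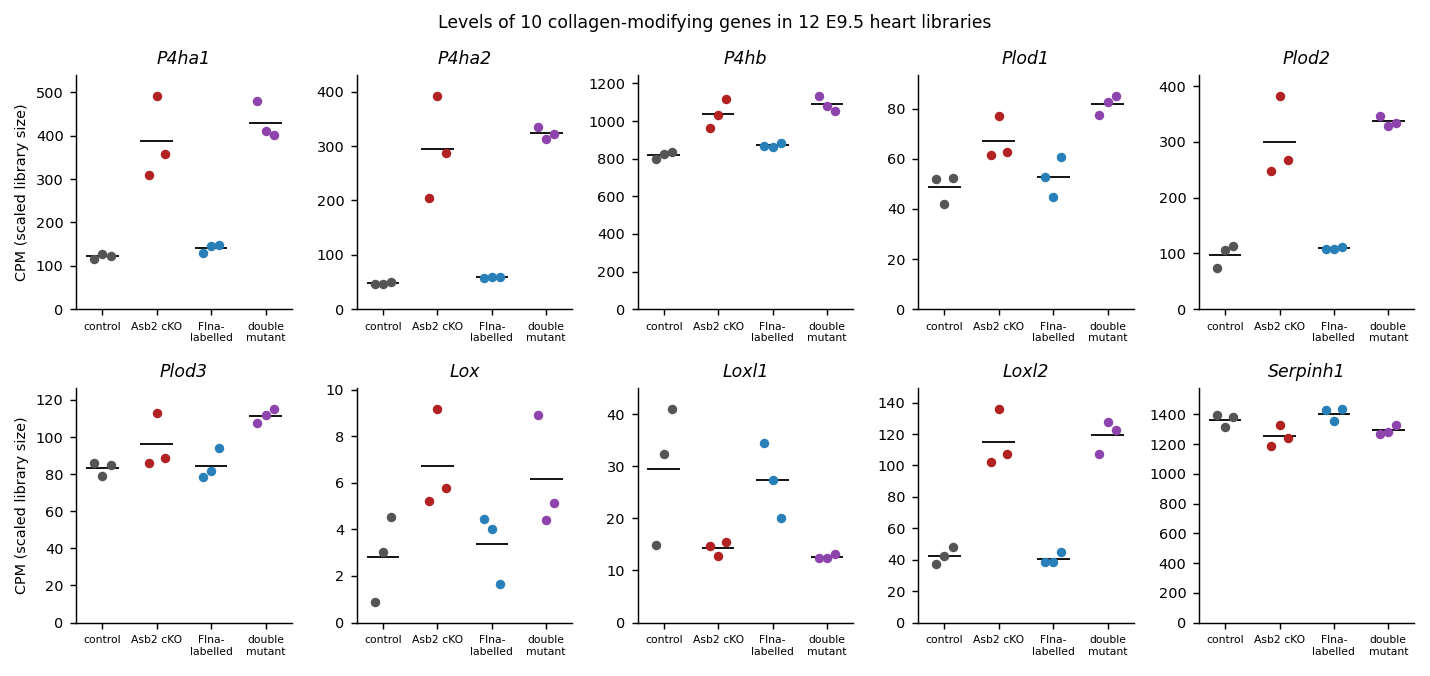
CPM of each of the 10 genes (vertical axes, linear, from 0) in the 12 libraries, grouped by genotype, with a point for each library and a bar for the group mean. The libraries of P4ha1, P4ha2, Plod2 and Loxl2 in the Asb2 cKO and double mutant groups all lie above those of the control and of the Flna-labelled group, while Loxl1 in the same groups lies at 12.4 to 15.5 CPM.

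P4ha1 (ENSMUSG00000019916, GRCm38 chromosome 10, 59323296 to 59373304, plus strand) encodes the alpha subunit most widely expressed in embryos. It measured 115, 128 and 124 CPM in the controls, 310, 491 and 358 CPM in Asb2 cKO hearts, 129, 147 and 149 CPM in the Flna-labelled hearts, and 479, 411 and 401 CPM in double mutants. The groups labelled Asb2fl/fl did not overlap either of the others, and the lowest of their 6 libraries was Asb2 cKO 1. P4ha1 rose 3.10-fold in the Asb2 cKO (log2 difference 1.63, SE 0.17, adjusted p = 0.000252, limma) and 3.50-fold in the double mutant (1.81, SE 0.11, adjusted p = 5.67e-06).

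P4ha2 (ENSMUSG00000018906, chromosome 11, 54100095 to 54131665, plus strand), the second alpha subunit, had the largest difference of the 10. It measured 46.3, 46.7 and 49.6 CPM in the controls and 56.6, 60.1 and 59.1 CPM in the Flna-labelled hearts. In the Asb2 cKO it measured 205, 392 and 288 CPM, and in the double mutant 336, 312 and 321 CPM. The spread was wide in the Asb2 cKO and narrow in the double mutant, and the lowest of these 6 libraries was above the highest of the other groups. P4ha2 rose 5.95-fold in the Asb2 cKO (log2 difference 2.57, SE 0.20, adjusted p = 6.58e-05, limma) and 6.74-fold in the double mutant (2.75, SE 0.10, adjusted p = 3.28e-07), where it had rank 2 by p among the 14015 genes tested.

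P4hb (ENSMUSG00000025130, chromosome 11, 120560298 to 120573253, minus strand) encodes the beta subunit, which also works alone as a disulfide isomerase on many secreted proteins. It measured 797, 827 and 833 CPM in the controls and 867, 864 and 885 CPM in the Flna-labelled hearts. It measured 964, 1033 and 1116 CPM in Asb2 cKO hearts, and 1134, 1081 and 1051 CPM in double mutants. All 9 libraries of the other groups were above all 3 controls, by a small margin. P4hb rose in the double mutant (log2 difference 0.41, SE 0.11, adjusted p = 0.0163, limma), a call lost without double mutant 2 (adjusted p = 0.0659) and with Xist as a covariate (0.0793), within 6.64e-05 to 0.0793 over 20 alternatives. In the Asb2 cKO the difference of 0.34 (SE 0.14) did not pass (adjusted p = 0.0948), while the authors' deposited table gives it 0.34 with an FDR of 0.0343. The alpha subunits P4ha1 and P4ha2 were summed and set over P4hb, all per kilobase. The ratios were 0.156, 0.163 and 0.16 in the controls and 0.165, 0.184 and 0.181 in Flna-labelled hearts. The same ratios were 0.405, 0.643 and 0.435 in the Asb2 cKO and 0.543, 0.504 and 0.516 in the double mutant, so alpha subunit RNA stayed below beta subunit RNA in every library.

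The promoters of both alpha subunits are shown beside that of Serpinh1 because the alpha subunits rose and Serpinh1 did not pass the test. Each is the 250 bases before the RefSeq start of GRCm38.p6, 5′ to 3′ on the gene's strand, and capitals mark ACGTG and GCGTG, the core letters of the hypoxia response element, or their reverse complements CACGT and CACGC.
P4ha1 (chr10:59323046-59323295, plus strand): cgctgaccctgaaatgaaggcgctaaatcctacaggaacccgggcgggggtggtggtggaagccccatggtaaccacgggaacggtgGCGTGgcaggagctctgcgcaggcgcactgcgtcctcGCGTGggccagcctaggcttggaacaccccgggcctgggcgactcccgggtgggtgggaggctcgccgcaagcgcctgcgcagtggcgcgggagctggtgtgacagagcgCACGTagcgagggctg
P4ha2 (chr11:54100674-54100923, plus strand): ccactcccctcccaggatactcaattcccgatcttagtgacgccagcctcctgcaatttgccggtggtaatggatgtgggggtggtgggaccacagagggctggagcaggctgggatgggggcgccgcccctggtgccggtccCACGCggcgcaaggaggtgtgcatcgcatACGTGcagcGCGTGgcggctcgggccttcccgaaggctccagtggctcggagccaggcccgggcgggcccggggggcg
Serpinh1 (chr7:99353240-99353489, minus strand): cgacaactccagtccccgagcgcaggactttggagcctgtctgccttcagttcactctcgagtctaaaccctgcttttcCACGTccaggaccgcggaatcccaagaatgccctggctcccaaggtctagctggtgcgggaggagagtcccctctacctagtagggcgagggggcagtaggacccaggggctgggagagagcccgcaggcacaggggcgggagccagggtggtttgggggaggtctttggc
Counting back from the start, the P4ha1 window holds GCGTG at -163 and -126 and CACGT at -16. The P4ha2 window holds CACGC at -107, ACGTG at -78 and GCGTG at -69, and that of Serpinh1 holds CACGT at -171. None of the 3 windows overlaps an annotated GENCODE exon. The P4ha2 window nevertheless lies inside the GENCODE gene, which begins upstream of it at 54100095, so it precedes the RefSeq start only. RefSeq windows were found for 6 of the 9 members looked up, and all 6 hold at least 1 of the 2 cores, as do 38.6% of all 32851 windows of this length (16.6% hold ACGTG and 28.2% GCGTG on either strand). P4hb (CACGC at -205, CACGT at -56), Plod1 (GCGTG at -20) and Plod3 (4 matches) are the others, and Plod2, Loxl1 and Loxl2 have no entry. Such a match describes letters in a window and is not a measured binding site, and the window of Serpinh1, whose RNA was not called in any comparison, holds one as well.

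Among the lysyl hydroxylases the difference lay mostly in Plod2 (ENSMUSG00000032374, chromosome 9, 92542223 to 92608428, plus strand), the form that hydroxylates the telopeptide lysines of fibrillar collagens. Plod2 measured 74.7, 106 and 113 CPM in the controls, 249, 383 and 268 CPM in Asb2 cKO hearts, 108, 108 and 112 CPM in Flna-labelled hearts, and 346, 329 and 334 CPM in double mutants. Control 1 was the lowest library, and the groups labelled Asb2fl/fl did not overlap the others. Plod2 rose by 1.61 in the Asb2 cKO (SE 0.20, adjusted p = 0.000619) and by 1.80 in the double mutant (SE 0.15, adjusted p = 4.09e-05) on the log2 scale by limma.

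Plod1 (ENSMUSG00000019055, chromosome 4, 147909753 to 147936767, minus strand), which acts on lysines of the triple helix, measured 51.9, 41.9 and 52.4 CPM in the controls and 61.4, 77 and 62.9 CPM in Asb2 cKO hearts. It measured 52.9, 44.9 and 60.8 CPM in Flna-labelled hearts and 77.5, 82.5 and 85.1 CPM in double mutants. The double mutant libraries were above all 9 others. Plod1 rose in the double mutant (log2 difference 0.75, SE 0.12, adjusted p = 0.00161, limma). In the Asb2 cKO its difference of 0.46 (SE 0.15) passed narrowly (adjusted p = 0.0489), and the call was lost when any 1 of the 6 libraries was left out (adjusted p 0.0567 to 0.184, against 0.0212 to 0.184 over all 20 alternatives). The authors' deposited table gives 0.46 with an FDR of 0.0182 for Plod1 in the Asb2 cKO.

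Plod3 (ENSMUSG00000004846, chromosome 5, 136987019 to 136996648, plus strand), which also has glycosyltransferase activity and is needed for type IV collagen, measured 85.9, 79.2 and 85.1 CPM in the controls and 86.2, 113 and 88.7 CPM in Asb2 cKO hearts. It measured 78.3, 81.4 and 94.1 CPM in Flna-labelled hearts and 107, 112 and 115 CPM in double mutants. Only Asb2 cKO 2 reached the double mutant range. Plod3 rose in the double mutant (log2 difference 0.42, SE 0.10, adjusted p = 0.00985, limma), a call lost with Xist as a covariate (adjusted p = 0.0611, the highest of 20 alternatives, the lowest being 0.000793), and it did not pass in the Asb2 cKO (0.19, SE 0.14, adjusted p = 0.336). Exons of Plod3 share 529 bases with Znhit1 on the opposite strand, and those of Plod2 and Loxl2 share 346 and 301 bases with opposite-strand genes that are not in the tables. Whether counting used strand is not given in the sources used here, so reads in those bases cannot be assigned to one strand.

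Of the 4 type IV collagen genes tested, which encode the network collagen of basement membranes, 2 rose in the double mutant. Col4a1 (mean 1177 ± 86.2 CPM in double mutants and 708 ± 109 CPM in the controls) and Col4a2 (774 ± 58.6 and 432 ± 70.7 CPM, SD, n = 3 each) rose in the double mutant by 0.74 and 0.85 on the log2 scale (limma adjusted p = 0.00365 and 0.00187). Col4a5 (0.02, adjusted p = 0.93) and Col4a6 (0.37, adjusted p = 0.129) did not pass there. In the Asb2 cKO none of the 4 passed, with 0.50 for Col4a1 and 0.51 for Col4a2 (adjusted p = 0.0859 and 0.0899). Markers of endocardium and endothelium moved in the same libraries. Of 10 such markers 6 rose in the double mutant and 2 rose and 2 fell in the Asb2 cKO, and their summed level was 863 to 1033 CPM in the controls, 957 to 1392 CPM in Asb2 cKO hearts, 748 to 967 CPM in Flna-labelled hearts and 1206 to 1610 CPM in double mutants, with no marker at 0 in a group. In bulk hearts fewer cells of a type and less RNA per cell cannot be told apart, and the part of these markers in the Plod1 and Plod3 differences was not tested.

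The lysyl oxidases went in different directions. Loxl2 (ENSMUSG00000034205, chromosome 14, 69609068 to 69695834, plus strand), a form with scavenger receptor domains that acts on type IV collagen, measured 37.3, 42 and 47.8 CPM in the controls, 102, 136 and 107 CPM in Asb2 cKO hearts, 38.3, 38.4 and 44.7 CPM in Flna-labelled hearts, and 108, 128 and 122 CPM in double mutants. The 6 libraries labelled Asb2fl/fl lay well apart from the other 6. Loxl2 rose by 1.42 in the Asb2 cKO (SE 0.15, adjusted p = 0.000309) and by 1.48 in the double mutant (SE 0.12, adjusted p = 4.53e-05) on the log2 scale by limma.

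Loxl1 (ENSMUSG00000032334, chromosome 9, 58287738 to 58313186, minus strand), the form needed for elastic fibres, was the only member lower at the threshold. It measured 14.8, 32.4 and 41 CPM in the controls and 34.5, 27.4 and 20.1 CPM in Flna-labelled hearts, but 14.6, 12.7 and 15.5 CPM in Asb2 cKO hearts and 12.4, 12.4 and 13.1 CPM in double mutants. The groups labelled Asb2fl/fl were narrow and low, and control 1 lay among the Asb2 cKO libraries. Against the control Loxl1 fell in the double mutant (log2 difference -1.07, SE 0.32, adjusted p = 0.0362, limma), and its difference in the Asb2 cKO did not pass (-0.90, SE 0.31, adjusted p = 0.0661). The authors' deposited table gives -1.04 with an FDR of 0.00296 for the Asb2 cKO and -1.22 with an FDR of 0.000326 for the double mutant.

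The Loxl1 calls changed with the libraries in the fit. Without control 1 the Asb2 cKO difference passed (-1.32, adjusted p = 0.00221, the lowest of 20 alternatives, of which 6 passed and the highest was 0.222). The double mutant call was lost without control 2 (-0.94, adjusted p = 0.103), without control 3 (-0.77, 0.0841), without double mutant 1, 2 or 3 (0.0989, 0.104 and 0.0985) and with Xist as a covariate (-0.49, adjusted p = 0.206), and 12 of 20 alternatives passed, with adjusted p from 0.000282 to 0.206. Markers of proepicardium and epicardium, the mesothelial cells that cover the heart, summed to 169, 374 and 475 CPM in the controls, 272, 215 and 244 CPM in Asb2 cKO hearts, 371, 335 and 295 CPM in Flna-labelled hearts and 252, 189 and 258 CPM in double mutants. Control 1 was low in both this sum and Loxl1, and controls 2 and 3 were high in both. Of these 7 markers 0 rose and 0 fell in the Asb2 cKO or in the double mutant against the control, and none was at 0 in a group. The part of the proepicardial and epicardial markers in the Loxl1 difference was not tested. Being lowest in control 1 was not particular to this list. Postn, a cushion mesenchyme marker, was lowest there too (26.4, 44 and 55.5 CPM in controls 1, 2 and 3). So was Col9a3, a collagen chain (6.75, 17.3 and 16.3 CPM). Both fell in the Asb2 cKO and in the double mutant. The summed cushion mesenchyme markers were not lowest in control 1 (1048, 844 and 1062 CPM). Their median log2 deviation from the gene means over the 12 libraries was lowest there, at -0.60, 0.23 and 0.04 in controls 1, 2 and 3.

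**Figure D2:**
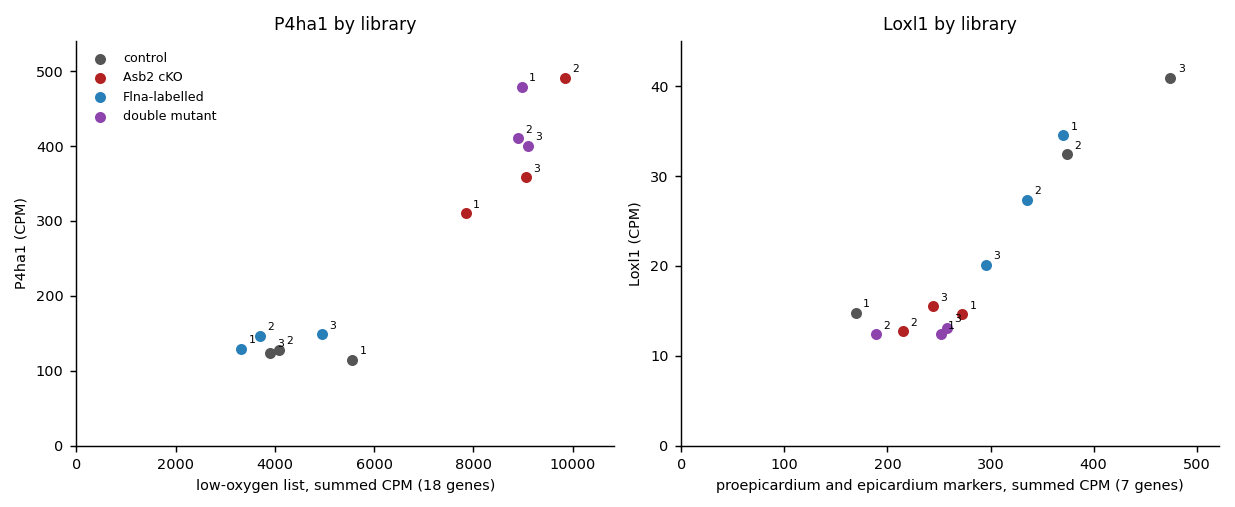
CPM of a member gene in each library (vertical axes) against the summed CPM of a marker or gene list in the same library (horizontal axes), with 1 point per library coloured by genotype group. Control 1 sits low on both axes for Loxl1 and the proepicardial and epicardial markers, at 14.8 CPM and 169 CPM.

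Lox (ENSMUSG00000024529), the founding member of the lysyl oxidase family, was scarce in all libraries. It measured 0.889, 3.05 and 4.52 CPM in the controls, or 27, 111 and 132 reads, and 5.23, 9.16 and 5.78 CPM in Asb2 cKO hearts. It measured 4.43, 4 and 1.65 CPM in Flna-labelled hearts and 8.92, 4.4 and 5.13 CPM in double mutants. The Asb2 cKO libraries were above all controls, whereas double mutant 2 was below control 3. The differences of 1.27 (SE 0.43) and 1.13 (SE 0.46) did not pass (limma adjusted p = 0.0591 and 0.0899), and both passed without control 3 (1.66, adjusted p = 0.0307, and 1.52, adjusted p = 0.0375). Over 19 alternatives the adjusted p ran from 0.0307 to 0.183 in the Asb2 cKO, where 3 passed, and from 0.0375 to 0.235 in the double mutant, where 2 passed.

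Serpinh1 (ENSMUSG00000070436, chromosome 7, 99345376 to 99353239, minus strand), the collagen chaperone, measured 1399, 1312 and 1385 CPM in the controls, 1184, 1331 and 1240 CPM in Asb2 cKO hearts, 1427, 1355 and 1435 CPM in Flna-labelled hearts, and 1269, 1281 and 1330 CPM in double mutants. The Asb2 cKO and double mutant libraries overlapped the controls. No comparison called it, and the 95% interval of its log2 difference from the control ran from -0.43 to 0.18 in the Asb2 cKO and from -0.32 to 0.17 in the double mutant.

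**Figure D3:**
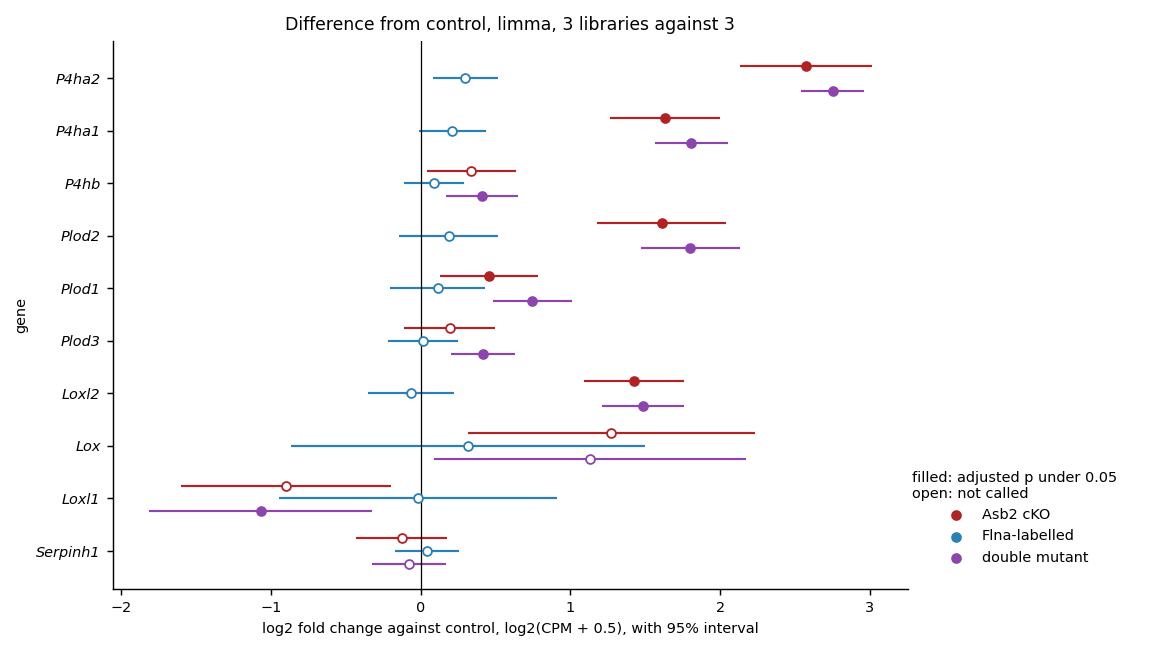
Log2 difference of each of the 10 genes from the control (horizontal axis, log2(CPM + 0.5), limma, 3 libraries against 3) with its 95% interval, for the Asb2 cKO, the Flna-labelled group and the double mutant. Filled points passed an adjusted p of 0.05, and P4ha2 stands farthest to the right, at 2.57 and 2.75.

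In the Flna-labelled group, which keeps 1 Asb2 allele that is not floxed, the members lay close to the control. The largest difference was that of Lox, with 0.32 (95% interval -0.87 to 1.50, adjusted p = 0.815, limma), followed by P4ha2 with 0.30 (0.08 to 0.52, adjusted p = 0.305) and P4ha1 with 0.21 (-0.01 to 0.43, adjusted p = 0.397). The libraries of 3 members, P4ha1, P4ha2 and P4hb, were all above the controls without overlap, against 9.27% of all genes. The interval of Loxl1 (-0.95 to 0.91) was wide too. By contrast, the libraries of 8 members lay above the controls without overlap in the Asb2 cKO, against 20.0% of genes, and those of 7 members above and 1 below in the double mutant, against 23.6% and 24.2%.

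With the label Flnafl/fl added to Asb2fl/fl, no member was called. Between the double mutant and the Asb2 cKO 0 of 10 members passed, against 0.0214% of 14037 genes, and their log2 differences ran from -0.17 (Loxl1) to 0.29 (Plod1). For P4ha1 the difference was 0.18 (95% interval -0.22 to 0.57), for P4ha2 0.18 (-0.27 to 0.63), for Plod2 0.19 (-0.17 to 0.56) and for Loxl2 0.06 (-0.25 to 0.37), each with an adjusted p of 0.999 by limma. Plod1 was the only member whose libraries did not overlap (4.35% of genes were higher without overlap), and its interval was 0.01 to 0.57. The intervals leave room for differences of up to about 0.6 on this scale in P4ha2.

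Between the 2 groups that carry Flnafl/fl, most members were higher in the one labelled Asb2fl/fl, although Asb2 RNA itself did not differ between them at the threshold. This comparison shares the double mutant libraries with that against the control. Double mutants against Flna-labelled hearts gave 7 members higher and 1 lower, where 15.1% of 13954 genes were called higher and 16.3% lower (of all calls 48.1% were higher, and 37.6% after rescaling without the hemoglobin genes). P4ha2 rose by 2.45 (SE 0.08, adjusted p = 1.58e-06), P4ha1 by 1.60 (SE 0.10, adjusted p = 6.7e-05), Plod2 by 1.62 (SE 0.08, adjusted p = 2.08e-05) and Loxl2 by 1.55 (SE 0.11, adjusted p = 6.98e-05) by limma. Plod1 rose by 0.63 (adjusted p = 0.00526), and Loxl1 fell (log2 difference -1.05, adjusted p = 0.00419), a call kept under all 20 alternatives (0.0239 at most). Of the 7 proepicardial and epicardial markers 2 fell in the same comparison, Tcf21 (-1.01, adjusted p = 0.0243) and Wt1 (-0.62, adjusted p = 0.0324, limma), and 0 rose. Markers of other cells moved there as well. All 10 primitive erythroid and all 10 liver bud and yolk sac markers fell, while 6 of 10 endothelial markers rose. Of 12 cardiomyocyte markers 3 rose, and of 8 cushion mesenchyme markers 1 rose and 2 fell. The part of any of these cells in the Loxl1 difference was not tested. Of the members, P4hb (0.32, adjusted p = 0.0287) and Plod3 (0.40, adjusted p = 0.014) also rose. The P4hb call was lost without Flna-labelled 1 or 2, without double mutant 1 or 2 (adjusted p 0.0683 to 0.109) and after rescaling without the hemoglobin genes (0.0963), out of 0.000242 to 0.109 over 20 alternatives. The Plod3 call was lost without Flna-labelled 1 or 2 or double mutant 2 (0.054 to 0.0631, out of 0.00175 to 0.0631).

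Whether the Asb2 difference depended on the Flna label was tested as an interaction over all 12 libraries. No member passed, and limma called 0 of 13981 genes (0.0%), with 1372 at an unadjusted p under 0.05, 0 calls by edgeR and 71 by DESeq2. The difference of log2 differences was -0.03 for P4ha1 (95% interval -0.48 to 0.41), -0.12 for P4ha2 (-0.63 to 0.39), 0.01 for Plod2 (-0.50 to 0.51) and 0.12 for Loxl2 (-0.28 to 0.53). For Lox it was -0.46, with an interval from -1.86 to 0.95.

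The makeup of each enzyme family within a library, per kilobase of the deposited length, was compared as well. Each family held its members only, so P4ha3 and Loxl3 were left out of the shares. In the controls Loxl3 measured 3.62, 7.08 and 8.73 CPM and P4ha3 1.97, 4.2 and 7.87 CPM. Such a share is free of library scaling but depends on the gene lengths used. The deposited length and the merged GENCODE exons are 3254 and 5405 bases for Loxl2, and 3331 and 3297 bases for Loxl1. Which isoform leads a family, such as Loxl2 over Loxl1 in the controls, therefore depends on that choice. No share difference from the control changed sign without dividing by length. P4ha2 was 24.9 ± 1.03% of the alpha subunit RNA in the controls, 39.1 ± 2.62% in the Asb2 cKO, 26.1 ± 0.97% in Flna-labelled hearts and 39.1 ± 1.62% in the double mutant (SD, n = 3 each). Plod2 was 43.7 ± 6.29% of the lysyl hydroxylase RNA in the controls and 65.7 ± 2.06%, 45.8 ± 2.14% and 64.8 ± 1.44% in the other groups in that order. Plod3 made up 34.9 ± 3.45% in the controls and 19.8 ± 0.985% and 19.9 ± 0.702% in the Asb2 cKO and the double mutant. Among the lysyl oxidases, Loxl1 was 38.1 ± 9.06% in the controls and 38.5 ± 7.75% in Flna-labelled hearts, but 10.8 ± 2.27% in the Asb2 cKO and 9.2 ± 0.631% in the double mutant, where Loxl2 made up 86.8 ± 1.86% and 88.6 ± 1.64%. For P4ha2, Plod1, Plod2, Plod3, Loxl1 and Loxl2 the shares in the Asb2 cKO and in the double mutant did not overlap the control shares (exact two-sided permutation p = 0.1, the smallest that 3 against 3 libraries allow, and 0.175 adjusted over 21 tests), so the design cannot place these differences below 0.05.

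**Figure D4:**
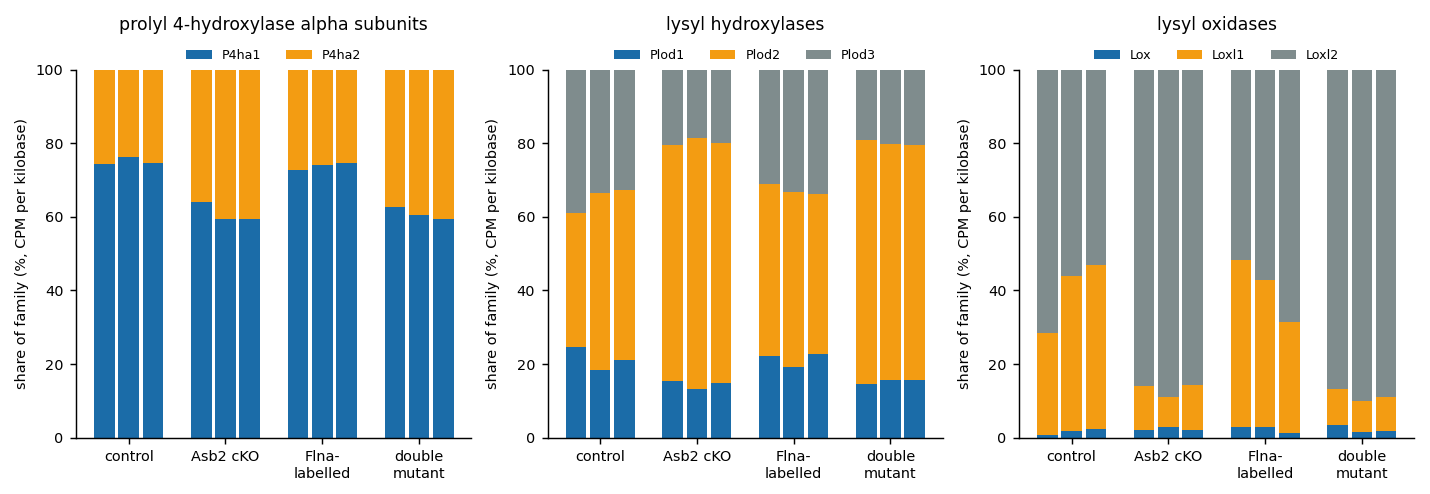
Share of each enzyme within its family in percent of the summed CPM per kilobase (vertical axis) for prolyl 4-hydroxylase alpha subunits, lysyl hydroxylases and lysyl oxidases, with 1 stacked bar per library in the 4 groups. Only members are counted in a family. Mean Plod2 goes from 43.7% in the controls to 65.7% in the Asb2 cKO, and Loxl2 from 60.2% to 86.8%.

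The remaining isoforms of these families, singled out after the values were seen, were scarce. P4ha3, the third alpha subunit, measured 1.97, 4.2 and 7.87 CPM in the controls, 0.493, 2.39 and 1.55 CPM in Asb2 cKO hearts, and 1.76, 0.82 and 1.29 CPM in double mutants. In the Flna-labelled hearts it measured 5.44, 2.52 and 2.5 CPM. P4ha3 fell in the double mutant (log2 difference -1.40, SE 0.43, adjusted p = 0.032, limma), in the direction of Loxl1 and opposite to the other alpha subunits. That call rests on 60, 153 and 230 reads in the controls and 74, 33 and 52 in double mutants. In the Asb2 cKO the difference did not pass (-1.35, SE 0.49, adjusted p = 0.0735, limma). The alternatives were not examined for P4ha3. Loxl3 did not pass against the control in the Asb2 cKO (0.33, limma adjusted p = 0.444) or the double mutant (0.06, adjusted p = 0.884). Loxl4 was looked up by symbol and was not found among the genes listed.

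The substrates of these enzymes did not move as a block. Of 31 collagen chain genes tested, 3 rose and 2 fell in the Asb2 cKO (median log2 difference 0.02) and 7 rose and 2 fell in the double mutant (median 0.21). Over all genes tested, limma called 10.7% higher and 10.9% lower in the Asb2 cKO, and 15.6% and 16.7% in the double mutant. The list counts here are to be read beside these shares. Col12a1, a fibril-associated collagen, rose in the Asb2 cKO from 32.9 ± 5.93 to 72.5 ± 14.8 CPM (log2 difference 1.12, adjusted p = 0.00279, limma), and Col9a3 fell from 13.5 ± 5.84 to 3.17 ± 0.425 CPM (-1.82, adjusted p = 0.00492). Of 24 other collagen folding and processing genes 1 rose and 2 fell in the Asb2 cKO, and 2 rose and 3 fell in the double mutant. Colgalt2, which adds galactose to hydroxylysine, rose in both (1.03 and 1.14, adjusted p = 0.00982 and 0.00236), and Tmem38b, an endoplasmic reticulum potassium channel needed for collagen processing, fell in both (-0.75 and -0.71, adjusted p = 0.0084 and 0.00294). Of 13 elastic fibre genes 1 rose and 0 fell in the Asb2 cKO and 3 rose and 0 fell in the double mutant, with Fbn2, a fibrillin, in both (0.51 and 0.47, adjusted p = 0.0371 and 0.0307).

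The folding partners of P4hb and the genes of the low-oxygen response went opposite ways. Of 18 disulfide isomerase and endoplasmic reticulum folding genes 1 rose and 10 fell in each of the Asb2 cKO and the double mutant, with medians of -0.52 and -0.49. The gene that rose was Ero1l, the oxidase that recharges protein disulfide isomerase, from 53.3 ± 5.04 CPM in the controls to 232 ± 87.1 CPM in Asb2 cKO hearts (log2 difference 2.05, adjusted p = 0.000343, limma) and 212 ± 21.4 CPM in double mutants (1.99, adjusted p = 5.41e-06). Dnajb11, a co-chaperone, fell by 1.01 and by 0.92 on the log2 scale (adjusted p = 0.000892 and 0.000418). Of 18 low-oxygen response genes 16 rose and 0 fell in the Asb2 cKO (median 1.82), and 16 rose and 1 fell in the double mutant (median 1.91). Egln3, a prolyl hydroxylase that acts on the hypoxia-inducible factors, rose by 3.19 and 3.37 (adjusted p = 4.79e-05 and 6.44e-07), and Vegfa, the endothelial growth factor, rose by 2.29 in the double mutant (adjusted p = 1.79e-06).

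Of 6 copper and ascorbate supply genes 1 rose and 1 fell in each. Atp7b, a copper pump, rose by 1.02 and 0.98 (limma adjusted p = 0.0148 and 0.00999), and Atox1, a copper chaperone, fell by 0.67 and by 0.76 (adjusted p = 0.0123 and 0.00247). In the Flna-labelled group 0 genes of these 6 lists were called in either direction. In the double mutant against that group, 17 of 18 low-oxygen genes rose and 0 fell, and 11 of 18 folding genes fell and 1 rose. The members themselves belong to none of these lists. The lists were chosen with earlier results of these data known, so their counts describe them and support no direction.

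**Figure D5:**
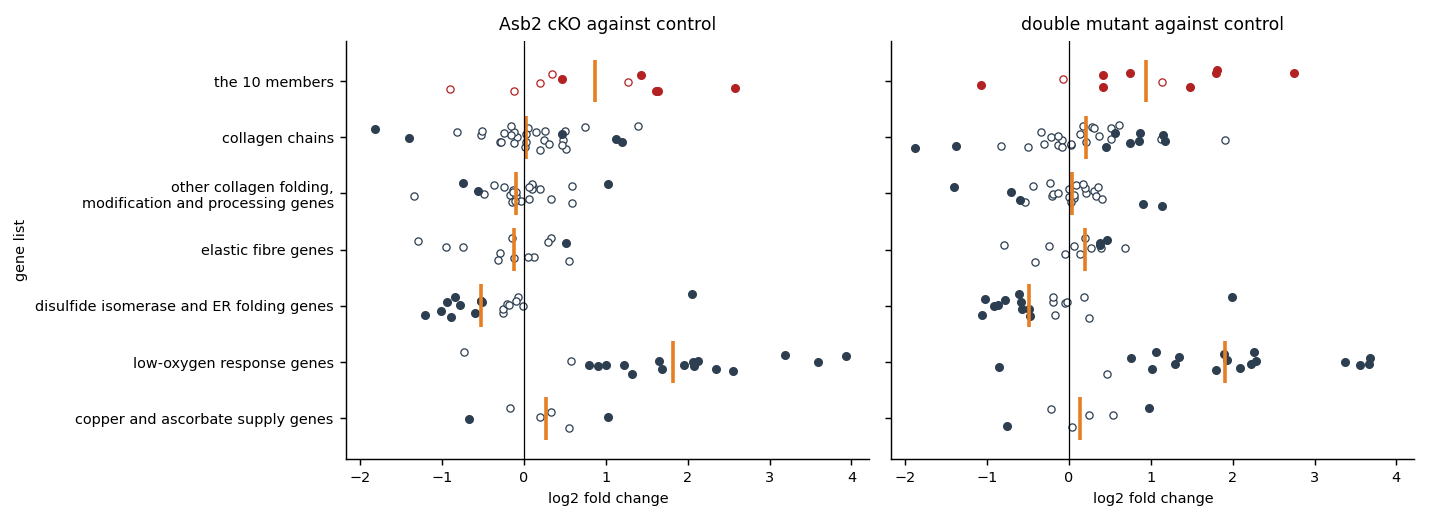
Log2 difference from the control (limma, log2(CPM + 0.5)) of the genes of each pathway list beside the 10 collagen enzyme genes, with 1 point per gene (filled where the adjusted p was under 0.05) and an orange line at the list's median, for the Asb2 cKO and the double mutant. Low-oxygen response genes sit mostly above 0 with medians of 1.82 and 1.91, and disulfide isomerase and folding genes mostly below 0 with medians of -0.52 and -0.49.

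The genes whose levels followed a member most closely over the 12 libraries were looked up among 11505 genes. This is a description over libraries of 4 genotypes, which share their group differences, so a high Pearson r needs no more than the same group means. P4ha1 followed P4ha2 (r = 0.996), Egln3 (0.993) and Egln1 (0.993), and P4ha2 followed Egln3 (0.996), P4ha1 and Vldlr (0.995). Loxl2 followed Fstl3 (0.993), Vldlr (0.991) and Egln3 (0.988), and Plod2 followed Foxo3 (0.996), Bbc3 and Ccni (both 0.993). The nearest genes of Plod1 were Ptprm (0.981), Col4a2 (0.980) and Col4a1 (0.975), and those of Plod3 included Col4a2 (0.965) and Pecam1 (0.950). Repin1 (0.982) stood nearest to P4hb, Ano6 (0.948) to Loxl1, Pdcd4 (0.961) to Lox and Pank1 (0.922) to Serpinh1.

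Within the Asb2 cKO most members shared their highest and lowest library, and the share of all genes with this order was not counted. Asb2 cKO 2 was the highest library for 8 of the 10 members and Asb2 cKO 1 the lowest for 9. In the control group, control 1 was the lowest for 7 members and control 3 the highest for 7. The summed low-oxygen response genes were also highest in Asb2 cKO 2 and lowest in Asb2 cKO 1 (7850, 9855 and 9051 CPM in libraries 1, 2 and 3), as were the summed collagen chains (3940, 4840 and 4214 CPM) and endothelial markers (957, 1392 and 1064 CPM). The elastic fibre, copper and ascorbate, other collagen processing, cushion mesenchyme and cardiomyocyte sums had the same highest and lowest library. Those of the disulfide isomerase and folding genes and of the epicardial, neural crest, pharyngeal, liver bud and erythroid markers did not. By the median log2 deviation of a list's genes from their means over the 12 libraries, not all lists kept the order of their sums. In Asb2 cKO 1, 2 and 3 this median was 0.24, -0.25 and -0.005 for cushion mesenchyme and -0.11, 0.007 and -0.25 for elastic fibre genes. It was -0.095, -0.099 and 0.015 for other collagen processing genes and -0.48, 0.13 and 0.32 for cardiomyocyte markers. The low-oxygen, collagen chain, endothelial and copper and ascorbate lists kept the order. It was thus not particular to the members or to the low-oxygen genes. In the controls the low-oxygen sum went the other way from most members, with 5563 CPM in control 1, 4076 CPM in control 2 and 3912 CPM in control 3. It lay at 3323 to 4951 CPM in Flna-labelled hearts and 8898 to 9098 CPM in double mutants. Other cell types moved with the genotype as well. All 10 primitive erythroid markers fell in the Asb2 cKO and in the double mutant, with summed levels of 7531 to 8171 CPM in the controls, 517 to 1217 CPM in Asb2 cKO hearts, 3101 to 3986 CPM in Flna-labelled hearts and 356 to 604 CPM in double mutants. Cardiomyocyte markers, which check the tissue label, were high in every group (18616 to 46086 CPM in sum), and 0 of 12 were called in the Asb2 cKO and 1 rose in the double mutant. Of 12 pharyngeal endoderm and surface ectoderm markers 7 rose in the Asb2 cKO (482 to 683 CPM in sum, against 251 to 343 CPM in the controls) and 2 rose in the double mutant (348 to 633 CPM). Of 8 cushion mesenchyme markers 0 rose and 1 fell in the Asb2 cKO, and 0 rose and 2 fell in the double mutant, with Postn, a matrix protein of the cushions, falling in both (-2.70 and -3.03, limma adjusted p = 0.0102 and 0.00584). Of 10 neural crest and pharyngeal mesenchyme markers 2 rose in the Asb2 cKO and 1 in the double mutant, and liver bud and yolk sac endoderm markers summed to 2.97 to 5.04 CPM in double mutants and to 159 to 576 CPM in Flna-labelled hearts, against 8.78 to 324 CPM in the controls. The part of these other cells in the members' differences was not tested. P4ha1, P4ha2, Plod2 and Loxl2 kept their calls in both comparisons with the control when any 1 library was left out. They also kept them after rescaling without the hemoglobin genes. Neither step changes the mix of cells in a library, so neither tests the part of other cells.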

How the data were processed

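Total RNA of 12 heart libraries (4 groups of 3) was made into sequencing libraries with Illumina protocols, per the labels. The submitters' processing notes name STAR, HTSeq and edgeR with mm10, without versions. Annotation, strand and the rule for omitting genes are not given in the sources used here. The authors deposited 4 tables of 15005 to 15211 genes, which they name CPM. The deposited values are a scaled signal, since columns sum to 942334 to 1051801, and 100.0% are whole multiples of 1 read (tolerance 0.01 read), so they are CPM on a scaled library size where plain CPM had been planned for. The authors' log2 fold change and p-value columns with FDR were quoted only where named. The deposited gene length was used for levels per kilobase and 1 alternative. Tables were joined by gene ID (values of 1 library in several tables differ by at most 4.4e-06 CPM), and 12 columns of per-sample values without a header were not used. Gene positions are from GENCODE M21 (99.1% of IDs matched).

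Groups were compared with limma 3.58.1 (trend, robust; R 4.3.3) on log2(CPM + 0.5) for genes averaging 1 CPM or more in the fitted libraries, Benjamini-Hochberg adjusted over all genes, threshold 0.05. A fold change on this scale understates low genes. Shares were tested by exact permutation. edgeR 4.0.16 and DESeq2 1.42.0 on the recovered reads were alternatives, beside other pseudocounts, filters, scalings, weights, a joint fit, Xist, gene length, a replicate block and leaving out each library. The script was tested on simulated data. The same number did not pair libraries. Members and lists were chosen with earlier results of these data known. Named genes are the members, up to 3 called genes with the smallest p per list and comparison, and the 3 nearest by Pearson r among genes averaging 5 CPM or more, of which 1 is not reported here.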

Additional observations from a re-analysis of the deposited data

How the results depend on the processing

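Of 1245 values of single members under the alternatives, 1146 kept their direction and their side of the threshold, 28 lost a call, 15 gained one and 56 changed sign. P4ha1, P4ha2, Plod2 and Loxl2 kept their calls under all 20 alternatives in the Asb2 cKO, in the double mutant and between the groups with Flnafl/fl. The number of members lower in the Asb2 cKO went from 0 to 1 with array weights, edgeR, DESeq2, the joint fit, Xist as a covariate and without control 1, so it ran from 0 to 1 over left-out libraries. In the double mutant it went from 1 to 0 in limma without trend and robust, with Xist, with the length trend removed and without single libraries (0 to 1). The cause was not tested.

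All sign changes came from differences that had not passed. Against the control in Flna-labelled hearts, Xist as a covariate gave -0.02 for Plod1, -0.03 for Plod3, 0.88 for Loxl1, 0.13 for Loxl2 and -0.01 for Serpinh1. Array weights gave -0.03 for Plod3 and 0.13 for Loxl1, removal of the length trend -0.02 for Plod3, and rescaling without hemoglobin genes 0.05 for Loxl1 and 0.01 for Loxl2. In the double mutant against the control, removal of the length trend gave 0.01 for Serpinh1. Against the Asb2 cKO, Xist gave -0.13 for P4ha1, -0.16 for P4ha2, -0.08 for Plod2, -0.10 for Loxl2 and -0.00 for Serpinh1. In the interaction, array weights gave 0.07 for P4ha1, rescaling without hemoglobin genes -0.09 for Plod2 and -0.10 for Serpinh1, edgeR -0.01 and -0.00 for these, and removal of the length trend -0.03 for Serpinh1. Leaving out 1 library gave, in Flna-labelled hearts, -0.06 to 0.07 for Plod3, -0.22 to 0.71 for Lox, -0.44 to 0.28 for Loxl1 and -0.15 to 0.03 for Loxl2. It gave, for the double mutant against the Asb2 cKO, -0.06 to 0.41 for P4ha2, -0.42 to 0.09 for Lox and -0.02 to 0.19 for Loxl2. In the interaction it gave -0.18 to 0.15 for P4ha1, -0.36 to 0.11 for P4ha2, -0.07 to 0.03 for P4hb, -0.11 to 0.20 for Plod2, -0.85 to 0.08 for Lox, -0.45 to 0.27 for Loxl1 and -0.03 to 0.05 for Serpinh1. Share differences in Flna-labelled hearts ran in percentage points from -1.41 to 1.64 for Plod1, from -1.42 to 4.39 for Plod2, from -4.75 to 4.6 for Loxl1 and from -5.74 to 4.61 for Loxl2 when 1 library was left out, and that of Lox in the double mutant ran from -0.0862 to 0.894.

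The replicate number is no pairing here: correlations of same-numbered libraries ran from -0.46 to 0.43, and in 0 of 6 pairs of groups were all above 0.1. With the replicate number as a block, Plod1 in the Asb2 cKO was no longer called (0.46, adjusted p = 0.137, limma) and Lox between the groups with Flnafl/fl was (0.81, adjusted p = 0.0386). Counts over all genes moved by over 1.5 times as follows. In the Asb2 cKO 3033 became 1557 with the block, 1771 and 1581 without control 1 or 2 and 2004 without Asb2 cKO 2. In Flna-labelled hearts 10 ran from 0 (edgeR, Xist, limma without trend and robust, without control 3) to 29 with array weights, 98 without Flna-labelled 3 and 244 with DESeq2. In the double mutant 4523 became 2875 without double mutant 2. Between the double mutant and the Asb2 cKO 3 became 14 with DESeq2, 0 in the joint fit and 26 without Asb2 cKO 2. Between the groups with Flnafl/fl 4394 became 2805, 2776 and 2712 without Flna-labelled 1 or 2 or double mutant 2. The interaction gave 8 calls with array weights, 71 with DESeq2, 5 with Xist, 18 without Asb2 cKO 2 and 1 without Flna-labelled 2, where the main test had 0. With a filter of 5 CPM Lox has no value except between the double mutant and the Asb2 cKO. Depth limits mainly Lox, with 27 reads in its lowest library.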
